A study of Mus musculus with 4 samples.

Results

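The cells described here are the 351 basal cells of the mouse mammary gland in which a set of immediate-early and acute-response genes was highest, out of 7028 basal cells and 18223 deposited cells. Of the deposited cells, 17832 held at least 1000 unique molecular identifiers (UMIs, which count captured RNA molecules). A cell was taken as basal where its UMIs of Krt5, Krt14, Krt17 and Acta2 came to at least 5 and to more than 3 times those of Krt8, Krt18 and Krt19. Basal cells were then ranked over all 4 libraries by a score, the UMIs of Fos, Egr1, Socs3, Arc, Rgs2 and Ptx3 per 10000 UMIs of the cell, and the top 5% were taken. They were thus chosen by the UMIs of these 6 genes and are called members below, and the remaining 6677 are called other basal cells. Because these 6 genes chose the members, their levels in members are given as a description and support nothing.

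The cells came from the fourth mammary glands of FVB mice, 2 mice per group and 1 droplet-based 3′ library per mouse. All 4 mice were homozygous for floxed Tfap2c, which encodes AP-2γ, a transcription factor, and carried Krt5-CreERT2, a Cre recombinase made where the Krt5 promoter is active and switched on by 4-hydroxytamoxifen (4OHT). From week 4 they were injected daily with corn oil, the vehicle, or with 4OHT, for 5 days by the sample characteristics and for 1 week by the treatment protocol, and glands were taken at week 9. The series asked how mammary stem cells fare without Tfap2c. The labels do not say which part of the gene is deleted, so 3′ counts need not show the loss, and cells outside the Krt5 lineage keep the gene. Among other basal cells Tfap2c stood at 389 and 290.5 UMIs per 1000000 (CPM) after corn oil, and with 4OHT these values were 303 and 337, so the groups overlapped.

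Immediate-early genes are switched on within minutes of a stimulus, without new protein synthesis, by kinase cascades that act on factors already bound at their promoters, such as CREB and the serum response factor. Their products are transcription factors (Fos, Egr1) and short-lived inhibitors that close the response (Socs3 on JAK-STAT signalling, Rgs2 on G protein signalling). Arc encodes a capsid-like protein best known from neurons, and Ptx3 a secreted pentraxin of innate immunity. Basal cells are the contractile outer layer of the mammary epithelium and respond to oxytocin, growth factors and cytokines. The same genes are also known to be induced while tissue is dissociated, and the time at which they came on in these cells was not measured.

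Library totals ranged from 17351950 to 22017878 UMIs. Of 18067 barcodes, 155 occurred in 2 or more libraries. 9 members carried such a barcode and none of them was a member in more than 1 library. Members were shallower than other basal cells in each library, with median UMIs of 3212 against 5167 and of 2405.5 against 3189 in the corn oil libraries, and of 3286 against 3925 and 2297 against 2845 in the 4OHT libraries. No member was among the likely doublets, and 2 members failed a filter of 500 genes and 10% mitochondrial counts.

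Upstream sequence is shown for 3 immediate-early genes that hold the core of a cAMP response element, and for 1 heat shock gene, because genes of both kinds were high in these cells. Capitals mark TGACGT, searched on both strands, in Fos, Rgs2 and Btg2, and a heat shock element unit, GAANNTTC, in Hspa1a. The bases are the 200 before the RefSeq start, or 188 for Rgs2, where the rest lies within the annotated gene. They are written 5′ to 3′ on the gene's strand and come from RefSeq on GRCm38.p6.
Fos, chr12:85473690-85473889, plus strand: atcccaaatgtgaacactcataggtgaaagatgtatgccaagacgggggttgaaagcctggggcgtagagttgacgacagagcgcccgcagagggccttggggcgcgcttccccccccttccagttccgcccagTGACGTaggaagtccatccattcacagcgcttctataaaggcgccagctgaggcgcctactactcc
Rgs2, chr1:144004162-144004349, minus strand: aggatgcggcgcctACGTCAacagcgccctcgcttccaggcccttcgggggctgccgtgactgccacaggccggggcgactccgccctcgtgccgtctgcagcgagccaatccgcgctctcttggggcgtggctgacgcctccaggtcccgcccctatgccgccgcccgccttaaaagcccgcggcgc
Btg2, chr1:134079156-134079355, minus strand: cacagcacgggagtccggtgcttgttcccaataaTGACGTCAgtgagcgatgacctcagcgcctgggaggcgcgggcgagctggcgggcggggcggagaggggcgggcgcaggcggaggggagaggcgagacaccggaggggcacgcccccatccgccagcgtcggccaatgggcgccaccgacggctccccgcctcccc
Hspa1a, chr17:34972157-34972356, minus strand: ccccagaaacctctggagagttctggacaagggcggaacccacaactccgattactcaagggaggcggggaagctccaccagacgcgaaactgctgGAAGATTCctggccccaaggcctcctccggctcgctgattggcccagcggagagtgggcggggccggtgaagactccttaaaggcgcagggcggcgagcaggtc

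Counted from the RefSeq start, the match in Fos began 66 bases before it and that in Rgs2 186 bases before it, while Btg2 held a full palindrome that gave 2 overlapping matches. Within the 200 bases before the start, TGACGT was found in 5.85% of 32851 mouse promoters in the same table and GAANNTTC in 5.36%. Among the 13 immediate-early transcription factor genes that were higher in members and had an entry, 3 held TGACGT, and among 8 such heat shock genes 4 held GAANNTTC. Of the 4 rule genes with an entry 2 held TGACGT, Fos and Rgs2, while Socs3 and Ptx3 did not. A CArG box, CCWWWWWWGG, was found in 0 of these 4 rule genes and in 2 of the 13, against 1.18% of promoters. An AP-1 site, TGANTCA, was found in 0 of the 4 and in 1 of the 13, against 5.48% of promoters. The shares are per promoter entry while these counts are per gene, and some genes, such as Egr2, had several entries. They are thus not like measures. Socs3 held 1 match to TTCNNNGAA, a STAT site, which occurred in 5.49% of promoters. The bases searched for Socs3, chr11:117969367-117969566, lie within its annotated gene, and the same holds for some other genes, such as Atf3. A match is a description of letters and not of a bound factor.

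The 6 genes had unlike weights in choosing the members. The score of members ran from 72.8 to 753 with a median of 103, against a median of 4.13 over all basal cells, of which 2337 (33.3%) had a score of 0. The lowest member stood at 72.8 and the highest cell left out at 72.3, and 57 members and 53 other cells lay within 10% of the cut. A member held between 9 and 132 UMIs of the 6 genes (median 32). Fos was the leading gene in 139 members, Socs3 in 77, Ptx3 in 64, Rgs2 in 34, Egr1 in 21 and Arc in 7, with 9 ties. Most members carried several of them: 318 had UMIs of at least 3 genes, and 19 had all 6.

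Fos, a subunit of the AP-1 transcription factor, was at 2517 and 3565 CPM in members of the corn oil libraries and at 3778 and 4543 in 4OHT members. The same gene was at 150 to 351 in other basal cells and at 151 to 346 in luminal cells, so members stood above both in each library. Egr1, a zinc finger factor, was at 961 and 1336 in corn oil members and at 1683 and 1804 in 4OHT members. Socs3 was at 2870 and 3598 in corn oil members and at 2993 and 1718 in 4OHT members, and the groups overlapped.

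The other rule genes differed more between libraries. Ptx3 was at 1923 and 695 in corn oil members and at 2651 and 1583 in 4OHT members. It led 18.2% and 3.45% of corn oil members and 27.6% and 13.0% of 4OHT members, so the groups overlapped. Its gene lies within Veph1 on the opposite strand, and since the use of strand in counting is not stated, reads of the pair cannot be told apart. Rgs2 was at 467 and 1158 in corn oil members and at 901 and 1458 in 4OHT members. Arc was at 1301 in members of corn oil replicate 1 and at 278, 423 and 260 in those of the remaining libraries. In that first library members numbered only 22, so single cells weigh heavily there.

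Members led by different genes also differed in genes that were not in the score. Those led by Fos held 8925 CPM of Hspa1a, an inducible heat shock protein, and 8147 of Acta2, smooth muscle actin, against 3711 and 2553 in those led by Ptx3. Junb was at 2998 in members led by Fos, 3657 in those led by Socs3 and 6958 in the 21 led by Egr1. These are sums over cells of several libraries with unequal shares, so they were not tested.

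**Figure D1:**
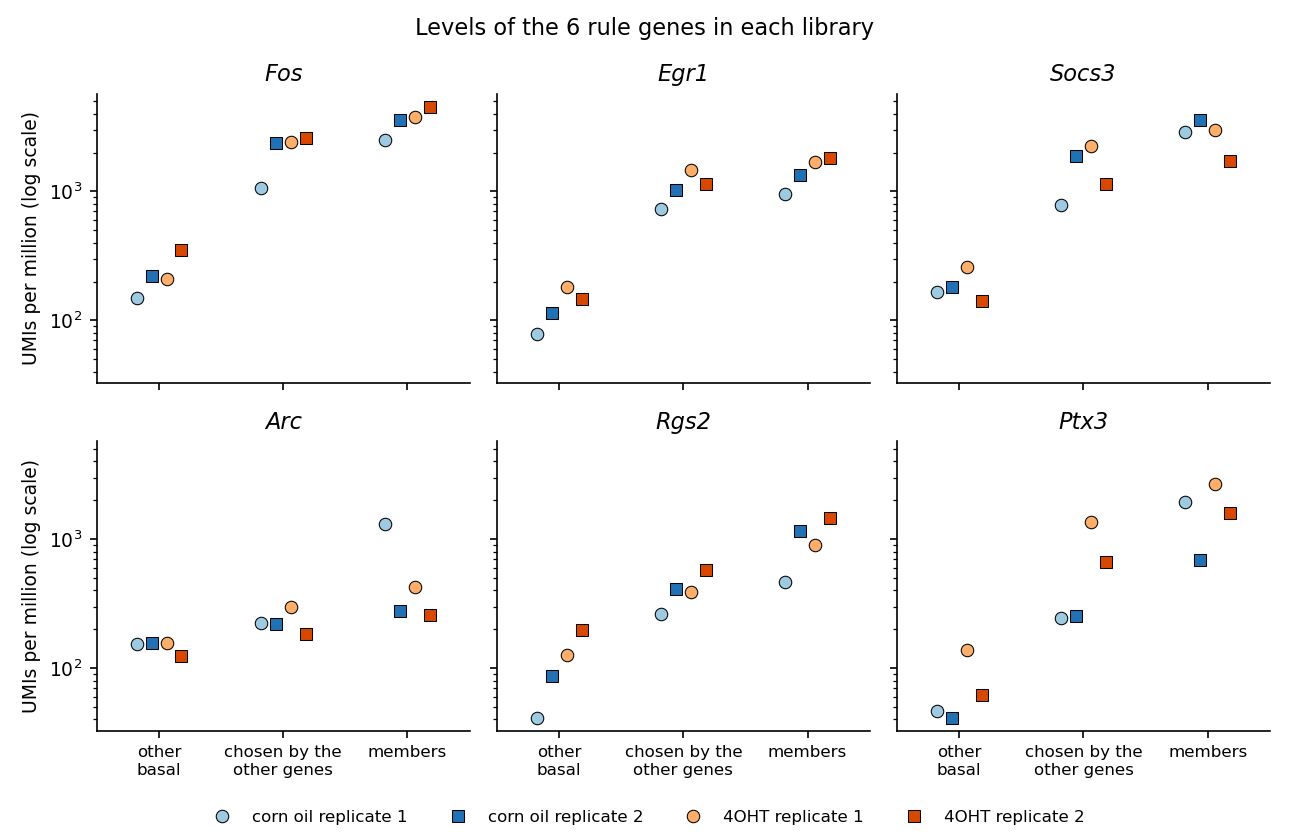
Level of each of the 6 rule genes in CPM (log axis) in each library, for other basal cells, for cells chosen with that gene left out of the score, and for members. Points are single libraries. The other basal cells drawn are those left by the full score, which took out cells high in the same gene. For Ptx3 in 4OHT replicate 1 they stood at 139 CPM, against 276 in the rest when Ptx3 was left out. With the gene left out, Fos, Egr1, Socs3, Rgs2 and Ptx3 stood above both sets of cells in each library, while Arc stayed close to them.

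To describe how far the 6 genes go together, each was left out of the score in turn. The top 5% were taken again by the other 5 genes, and the left-out gene was compared between those cells and the rest. The 6 genes were chosen with earlier results of these data known. The values are therefore a description and cannot test whether the genes go together. Between 265 (Fos left out) and 330 (Arc left out) of the 351 cells so chosen were also members. Fos left out of the score was at 1058 and 2366 CPM in the chosen cells of the corn oil libraries and at 2422 and 2605 in the chosen 4OHT cells, against 159 to 448 in the rest. That is a log2 difference of 2.74 ± 0.13 (SE implied by edgeR's F statistic, from a fit to 4 library pairs). The same difference was 2.79 ± 0.15 for Egr1, 2.56 ± 0.14 for Socs3, 2.24 ± 0.17 for Ptx3 and 1.43 ± 0.17 for Rgs2. Such an SE is not the spread between mice: in single libraries the difference of Rgs2 (CPM plus 5) ran from 1.13 to 2.49. Those 5 genes passed the threshold of an adjusted p of 0.05 in edgeR's quasi-likelihood test, each higher in 4 of 4 libraries, while the share of all genes called in the same fit was 23.4% for Fos, 23.8% for Egr1, 21.6% for Socs3, 24.8% for Ptx3 and 23.5% for Rgs2. Arc did not pass, at 0.43 ± 0.19 (edgeR adjusted p = 0.0870, with 23.3% of genes called). Its value was 0.50 without corn oil replicate 1 and 0.72 when the top 5% were taken within each library, and in both it passed. Against other basal cells matched on depth it was 0.16 (edgeR adjusted p = 0.640), with 223 against 526 CPM in corn oil replicate 1. The same setting took Ptx3 to 1.57, where it passed, although in corn oil replicate 1 it was then lower, at 243 against 267.

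The label basal was checked on markers that the rule did not use, since high Krt5, Krt14, Krt17 and Acta2 and low luminal keratins were fixed by it. Of 7 such basal markers (Myl9, Mylk, Trp63, Oxtr, Cnn1, Tagln and Lgals7) none was at 0 in members, and pooled over libraries each was higher than in other basal cells. Oxtr, the oxytocin receptor, was at 232 CPM in members and 143 in other basal cells, and Cnn1, calponin, at 948 and 641. These pooled values mix libraries with unequal shares. In edgeR's test with library as a block Myl9, Mylk and Cnn1 passed as higher. Oxtr (log2 0.46, edgeR adjusted p = 0.0553), Tagln (0.08) and Trp63 (0.03) did not pass. Of 10 luminal progenitor markers 4 were higher in members and 6 lower, and their sum was 1897 CPM against 1922, with 12157 in luminal cells. Of 10 hormone-sensing luminal markers 2 were higher and 8 lower. Of these, Esr1 was at 29.7 against 3.60 CPM, from 31 UMIs. Of 10 leukocyte markers 7 were at 0 in members, of 10 endothelial markers 6 were at 0, and of 10 pericyte markers 4 were at 0. Pericyte markers were higher in members for 5 and lower for 4, led by Mcam at 50.8 against 14.6 CPM. Of the fibroblast markers 8 of 10 were higher in members, 2 were at 0, and their summed level ranged from 28.3 to 423 CPM over the 4 member sums and from 24.4 to 78.0 over the other basal sums. The value of 423 was that of corn oil replicate 2, where 1 member of 6251 UMIs held 44 of the 64 fibroblast-marker UMIs. The part of fibroblast RNA in the results was not tested, beyond leaving out cells with over 10 such UMIs.

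Apart from the 6 rule genes, members differed from other basal cells in 2115 of 9097 genes tested (23.2%). Of these, 842 were higher (9.26%) and 1273 lower (14%), and the median log2 difference over all genes was -0.09. The sums of raw UMIs per library and state were compared by edgeR's quasi-likelihood test with library as a block, at an adjusted p under 0.05. Because genes that move with the 6 in single cells differ by the choice itself, the test says which genes these were and not that the cells form a class. Fewer genes passed without 4OHT replicate 1 (1017) or without 4OHT replicate 2 (1373), the libraries with most members. Against other basal cells matched on depth, 1362 of the 2115 genes could be tested, 1361 of them had the same direction and 989 passed again.

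Of 26 transcription factor and related genes of the immediate-early response beside Fos and Egr1, 14 rose, 1 fell and 11 did not pass, with a median log2 difference of 0.78 against -0.09 over all genes. Zfp36, whose protein binds and destabilises cytokine mRNAs, was at 957 and 1698 CPM in members of the corn oil libraries and at 1939 and 1324 in 4OHT members. In other basal cells it was at 111 to 258, so the states did not overlap. The difference was 7.13-fold (log2 2.83 ± 0.15). Atf3, a stress-induced member of the ATF family, was at 1628 to 2235 in the 4 member sums and at 318 to 496 in the others (log2 2.11 ± 0.13).

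Nr4a1, an orphan nuclear receptor, was at 386 to 1079 in members and 90.8 to 266 in other basal cells (log2 2.03 ± 0.16). Egr2 (1.93 ± 0.31) and Btg2, an antiproliferative factor (1.54 ± 0.13), were also higher in 4 of 4 libraries. Fosb passed at 1.95 ± 0.32 and was higher in 3 of 4 libraries, with 6.69 CPM in members of corn oil replicate 2 against 11.6 in the other basal cells. Ier3, an immediate-early gene linked to cell survival, was the 1 gene of the list that fell: it was at 548 to 788 in members and at 1401 to 1926 in other basal cells (log2 -1.38 ± 0.14, lower in 4 of 4 libraries).

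Genes listed as targets of CREB, a factor whose known binding site holds TGACGT, were higher in part. Of 11 listed genes 8 could be tested, 4 rose and none fell, and the median was 1.06. Bdnf, a secreted neurotrophin, was at 514 and 829 CPM in corn oil members and at 513 and 333 in 4OHT members, against 80.7 to 130 in other basal cells (log2 2.25 ± 0.17). Pde4b, a phosphodiesterase that breaks down cAMP, was at 568 to 829 in members and 204 to 324 in the others (1.24 ± 0.15). The remaining risers, Nr4a1 and Fosb, stand in both lists. Crem (0.65), Sik1 (0.06), Per1 (0.15) and Pde4d (0.87) did not pass.

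Inhibitors that follow the immediate-early wave rose in part. Of 14 tested feedback inhibitors of MAP kinase and NF-kB, 7 rose and 1 fell, with a median of 0.49. Spry1, an inhibitor of receptor tyrosine kinase signalling, was at 63.0 to 86.9 CPM in members and 14.1 to 19.0 in other basal cells (log2 2.19 ± 0.29). Dusp1, a phosphatase of MAP kinases, was at 448 to 886 against 185 to 344 (1.28 ± 0.15). Spry2 (1.22 ± 0.21), Trib1 (1.28 ± 0.23) and Dusp5 (1.18 ± 0.30) were higher in 4 of 4 libraries. Errfi1, an inhibitor of EGF receptors, passed in the opposite direction (-0.40 ± 0.14) although it was higher in members of corn oil replicate 1, at 1657 against 873.

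The IL-6 family and its STAT3 targets did not move as 1 group. Of 17 tested genes 6 rose and 3 fell. Cebpd, a transcription factor that STAT3 induces, was at 2157 and 3149 CPM in corn oil members and at 2702 and 2876 in 4OHT members, against 406 to 559 in other basal cells (log2 2.33 ± 0.13). Lifr, a receptor subunit for leukemia inhibitory factor (0.94 ± 0.28), and Cish, another SOCS-family inhibitor (1.36 ± 0.41), rose, and each was higher in 3 of 4 libraries. The ligand Lif fell (-3.43), with 1 UMI in members against 220 in other basal cells, out of 1043225 and 26113153 UMIs in all. Timp1 (-1.28 ± 0.34) and Pim3 (-0.64 ± 0.22) fell too. Il6 itself passed as higher at 2.56 ± 0.35, but was so in 2 of 4 libraries. Of its 51 member UMIs 29 lay in 1 cell, the one with 44 fibroblast-marker UMIs, and without such cells it no longer passed (1.03, edgeR adjusted p = 0.0750). Without corn oil replicate 2 it did not pass either, at 1.07.

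Cytokines and chemokines went both ways, 5 of 11 tested higher and 4 lower, with a median of -0.27. Tnfsf9, a ligand of the TNF family (1.54 ± 0.28), and Cxcl12, a chemokine (1.25 ± 0.23), were higher in 4 of 4 libraries. Ccl7, another chemokine, passed at 2.32 ± 0.24, but 97 of its 176 UMIs lay in 1 member of 4OHT replicate 1, and with the highest cell of each sum removed it was 1.24. Ccl2 (1.50 ± 0.28) was higher in 3 of 4 libraries and Ptgs2, a prostaglandin synthase (0.96 ± 0.30), in 2 of 4. Without 4OHT replicate 2 the difference of Ptgs2 was -0.00115, and without 4OHT replicate 1 it was 1.78. The neutrophil chemokine Cxcl2 fell (-3.06 ± 0.58), as did Cxcl10 (-2.82 ± 0.55), Csf3 (-1.76 ± 0.45) and Il11 (-2.43 ± 0.63), each with 12 member UMIs or fewer.

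Heat shock genes were higher nearly as a whole. Of 12 tested, 10 rose and 1 fell, with a median of 0.90. Dnajb1, a co-chaperone, was at 1985 and 1611 CPM in corn oil members and at 1951 and 2137 in 4OHT members, against 299.6 to 437 in other basal cells (log2 2.18 ± 0.13). Hspa1a was at 4352 to 6423 in members and at 899 to 1500 in the others (1.91 ± 0.11), and Hspb1, a small heat shock protein, at 10456 to 19485 against 5083 to 8697 (0.90 ± 0.09). Hspa1a and Hspa1b are near-identical copies whose reads the counting could split, so their separate values are uncertain. Hspe1, the co-chaperonin of mitochondria, fell (-0.51 ± 0.15).

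Of 10 tested growth arrest and p53 genes 4 rose and 3 fell, with a median of 0.41. All 3 Gadd45 genes rose: Gadd45g, a stress sensor, was at 2057 and 3256 CPM in corn oil members and at 4714 and 6028 in 4OHT members against 382 to 1254 in the others (log2 2.11 ± 0.12), followed by Gadd45b (1.68 ± 0.13) and Gadd45a (0.76 ± 0.17). Cdkn1a, a cell cycle inhibitor (-1.54 ± 0.18), and Bbc3, an inducer of apoptosis (-1.45 ± 0.47), fell. Plk3, a kinase, rose (1.09) and Sertad1 fell (-0.89), while Mdm2 (-0.59), Plk2 (0.60) and Ccng1 (0.22) did not pass.

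**Figure D2:**
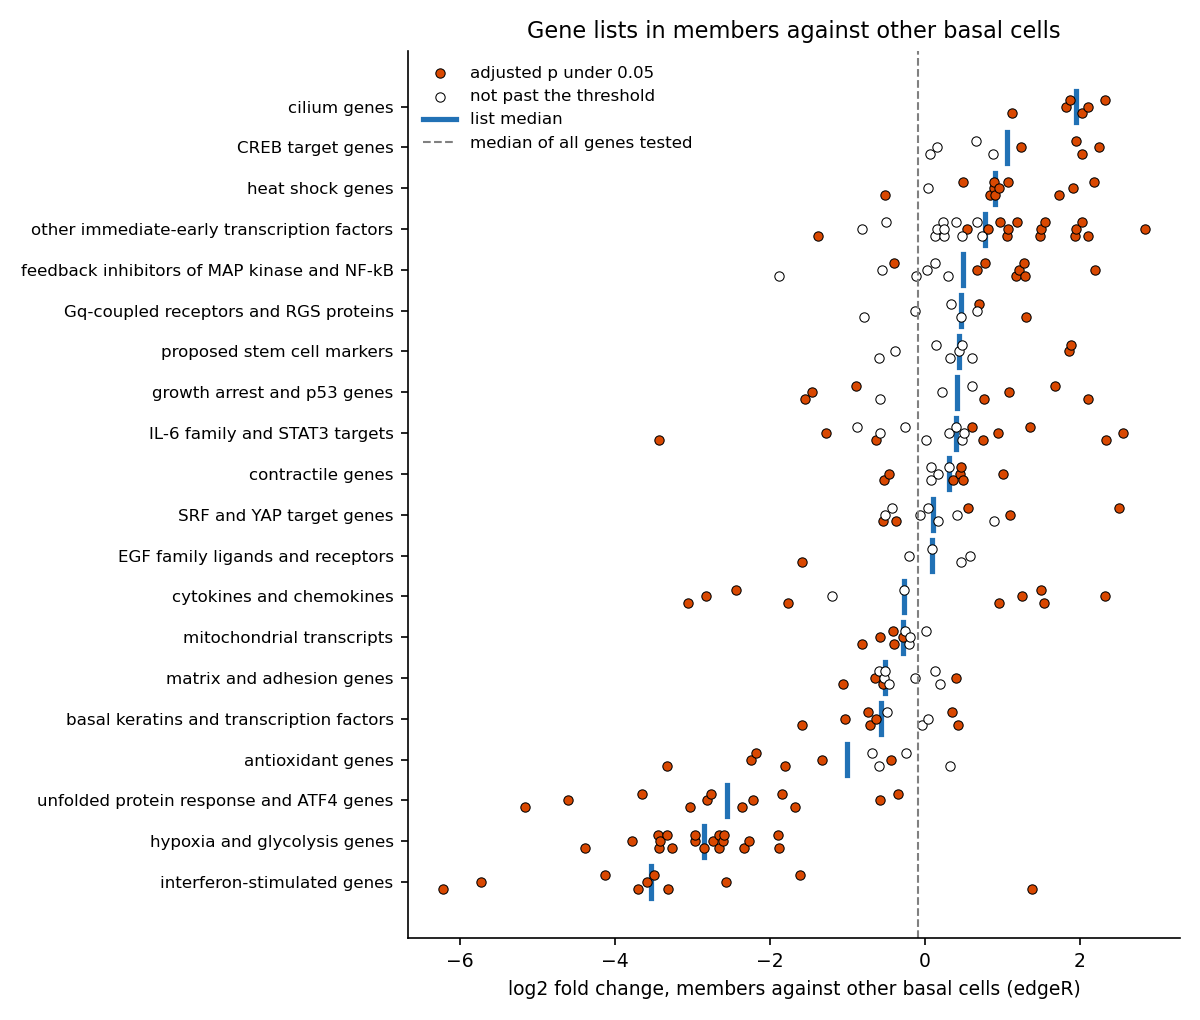
Log2 fold change of each tested gene of each list in members against other basal cells (x axis; positive is higher in members), with filled points past the threshold, the list median as a bar and the median of all genes tested as a dashed line. Heat shock and immediate-early lists lie to the right, with medians of 0.90 and 0.78; the unfolded protein response, hypoxia and interferon lists lie to the left, with medians of -2.56, -2.85 and -3.54.

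Contractile and structural genes differed by less. Of 11 contractile genes 5 rose and 2 fell. Myl9, a myosin light chain, rose most, at 1.00 ± 0.15 on the log2 scale, while Acta2 did not pass (0.07 ± 0.10). Krt5 was at 498 to 562 CPM in members and 342 to 375 in other basal cells (0.43 ± 0.15) and Krt14 was higher in 4 of 4 libraries (0.35 ± 0.10). Krt17 was lower (-0.63 ± 0.11), though not in corn oil replicate 1. These keratins also entered the definition of a basal cell. Targets of SRF and YAP gave 3 higher and 2 lower of 12. Ankrd1, a YAP target, was at 85.7 and 26.7 in corn oil members and at 304 and 301 in 4OHT members, against 14.1 to 48.5 in the others (2.51 ± 0.23). Of 5 tested EGF family genes 1 fell and none rose, and of 7 Gq-coupled receptor and RGS genes 2 rose and none fell, with medians of 0.09 and 0.46. Matrix and adhesion genes gave 1 higher and 3 lower of 11, with a median of -0.52. Over all genes tested 9.26% were higher and 14% lower, so such counts in short lists say little about these lists. Of 10 proliferation genes 1 was high enough to test, and it did not pass.

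Tfap2c was lower in members. It was at 328 and 80.2 CPM in members of the corn oil libraries and at 105 and 84.1 in 4OHT members, against 290.5 to 389 in other basal cells (log2 -1.58 ± 0.19, lower in 4 of 4 libraries). The value of 328 came from 23 UMIs, 12 of them in 1 cell. The related factor Tfap2a fell too (-1.03 ± 0.33), as did Snai2 (-0.74 ± 0.28) and Sox9 (-0.71 ± 0.22), both factors tied to the basal and stem cell programmes. Of 9 tested genes proposed as stem cell markers 2 rose, Lgr5 (1.86 ± 0.34, 51 UMIs in 44 members) and Tspan8 (1.89 ± 0.27, with none of its 165 UMIs in corn oil replicate 1), and none fell. Over all genes tested 9.26% were higher and 14% lower.

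All 12 tested genes of the unfolded protein response and the ATF4 response fell, with a median log2 difference of -2.56. Sdf2l1, a chaperone-associated protein of the endoplasmic reticulum, was at 42.8 and 13.4 CPM in corn oil members and at 13.3 and 31.5 in 4OHT members, against 407 to 547 in other basal cells (-4.60 ± 0.26). Ddit3, the factor CHOP, was at 56.0 to 99.98 against 386 to 506 (-2.76 ± 0.20). Asns, asparagine synthetase (-2.81 ± 0.26), and Trib3, a pseudokinase (-3.03 ± 0.31), followed. Chac1 (-5.15) had 1 UMI in members against 808 in the others, which held 26113153 UMIs in all against 1043225. Mthfd2, a mitochondrial folate enzyme outside that list, was among the largest falls of all (-4.33 ± 0.30).

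Hypoxia and glycolysis genes fell in the same way, in a list written after values had been seen and so without weight as evidence. The lists fixed before that were chosen with earlier results of these data known, so their counts and medians are descriptions too. All 19 tested were lower, with a median of -2.85. Car9, a carbonic anhydrase induced by low oxygen, was at 28.6 and 0 CPM in corn oil members and 7.61 and 7.01 in 4OHT members, against 132 to 161 in other basal cells (-4.38 ± 0.37). Ero1l, an oxidase of the endoplasmic reticulum, was at 1100 in members of corn oil replicate 1 and at 73.5 to 165 in the remaining member sums, against 1579 to 2893 (-3.42 ± 0.15). Members of all 4 libraries together held 187 UMIs of Ero1l, and 71 of these lay in 1 cell of corn oil replicate 1. Members of that library held 70726 UMIs in all, so most of its value of 1100 came from that cell. Hmox1, heme oxygenase, of an antioxidant list also written afterwards, was at 91.3 to 207 against 806 to 1614 (-3.33 ± 0.17). Of the 10 antioxidant genes 6 fell and 4 did not pass.

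Interferon-stimulated genes were low in members. Of 10 tested 9 fell and 1 rose, with a median of -3.54. Ifit1, an antiviral effector, had 2 UMIs in members against 4828 in other basal cells, where it was at 155 and 429 CPM after corn oil and at 88.2 and 59.4 after 4OHT. The ratio of others to members was 96.4 over the pooled cells (exact 95% interval 26.7 to 797, counting error only). Isg15, a ubiquitin-like protein, was at 3.50 to 19.0 against 87.4 to 371 (-3.70 ± 0.31). Irf1, an interferon-induced factor, was the 1 gene that rose (1.38 ± 0.26), in 3 of 4 libraries. Of 9 mitochondrial transcripts 5 passed as lower, with a median of -0.28, led by mt-Co2 (-0.81 ± 0.13).

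**Figure D3:**
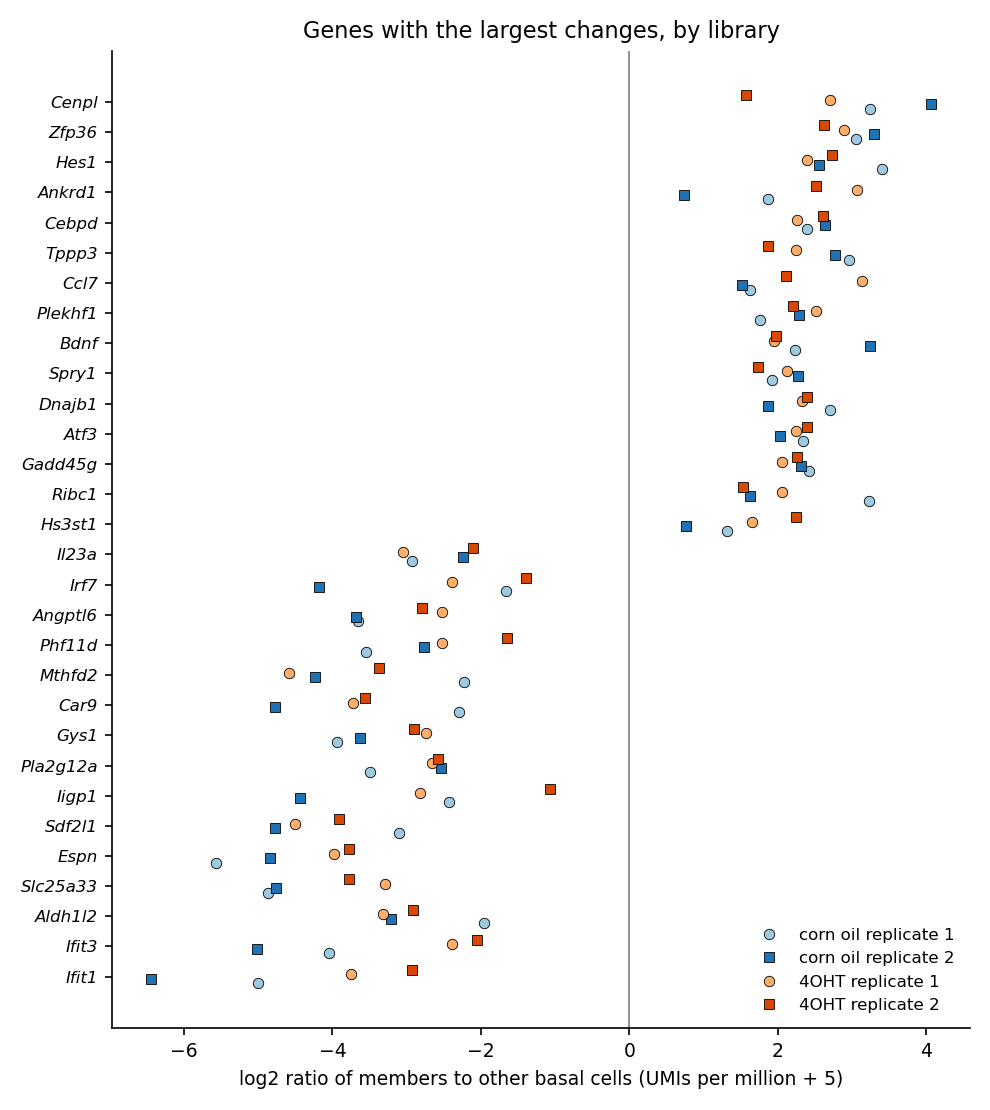
Log2 ratio of members to other basal cells in each library (x axis; CPM plus 5) for the 15 genes that rose most and the 15 that fell most among those past the threshold, at 20 CPM or more and in the same direction in all libraries. Each point is 1 library; fitted differences run from 2.06 to 3.61 for the risers and from -3.91 to -6.21 for the fallers.

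Among the 15 genes that rose most were several outside the lists. Cenpl, a centromere protein, led at 3.61 ± 0.33, from 24.5 to 167 CPM in members against 4.62 to 7.41, and rested on 78 UMIs in 41 members. Hes1, a repressor in the Notch pathway, was at 314 and 174 in corn oil members and 257 and 256 in 4OHT members, against 25.2 to 44.6 (2.73 ± 0.21). Plekhf1, an endosomal protein, was at 2.25 ± 0.20 and Hs3st1, a heparan sulfate sulfotransferase, at 2.06 ± 0.38. Of the 15, Ccl7 was the 1 gene with most of its member UMIs in a single cell. Besides the interferon and metabolic genes, the 15 that fell most held Espn, an actin-bundling protein (-5.15 ± 0.36), Slc25a33, a mitochondrial carrier (-5.24 ± 0.47), and Il23a, a cytokine subunit (-3.91 ± 0.58, 3 member UMIs).

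Tppp3 and Ribc1, 2 more of the risers, are microtubule-associated genes of cilia. In a list of cilium genes written after that, 6 of 10 could be tested and all 6 rose: Tppp3 was at 267 to 363 CPM in members and 30.6 to 83.1 in other basal cells (2.33 ± 0.19), and Foxj1, the master regulator of motile cilia, had 21 UMIs in 19 members (1.87 ± 0.48). The list was chosen for these values, so its count is a description.

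On GRCm38, Fos lies on chromosome 12 from 85473890 to 85477273, Socs3 on chromosome 11 from 117966079 to 117970047, Rgs2 on chromosome 1 from 143999338 to 144004161, Arc on chromosome 15 from 74669083 to 74672570 and Ptx3 on chromosome 3 from 66219910 to 66225805. Zfp36 lies on chromosome 7 from 28376784 to 28380253 and overlaps Gm44710 on the opposite strand, and Cebpd on chromosome 16 from 15887286 to 15891031 overlaps Spidr. Their reads may include those partners.

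The differences ran along the whole score rather than appearing at the cut. Basal cells were sorted into 6 bins, from 2337 cells with a score of 0 to the members, and list levels were summed in each library and bin. Immediate-early transcription factors, the 6 genes apart, stood at 4514 to 6332 CPM over the 4 libraries at a score of 0, at 9883 to 12203 in the 413 cells between 40 and the cut, and at 11424 to 15846 in members. CREB targets went from 400.1 to 477 at 0, through 1612 to 1987, to 2078 to 2487 in members. Heat shock genes had reached 24198 to 29592 below the cut and stood at 20551 to 31812 in members, so the ranges overlapped.

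The falling lists had fallen before the cut. Genes of the unfolded protein response stood at 10172 to 12772 CPM at a score of 0, at 3000 to 4295 between 10 and 20, at 1929 to 3228 between 40 and the cut, and at 1958 to 3549 in members. Hypoxia genes stood at 25971 to 32192 at a score of 0, 2944 to 4043 just below the cut and 1865 to 8356 in members. Tfap2c was at 420 to 537 at a score of 0, 87.3 to 129 just below the cut and 79.4 to 325 in members. Interferon-stimulated genes had another shape, at 155 to 620 at 0, 300 to 2374 between 10 and 20 and 51.9 to 265 in members. For these 4 the level in members overlapped that of the bin just below the cut. Median UMIs per cell were 3573 at a score of 0 and 2783 in members, and the part of depth in these gradients was not tested.

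**Figure D4:**
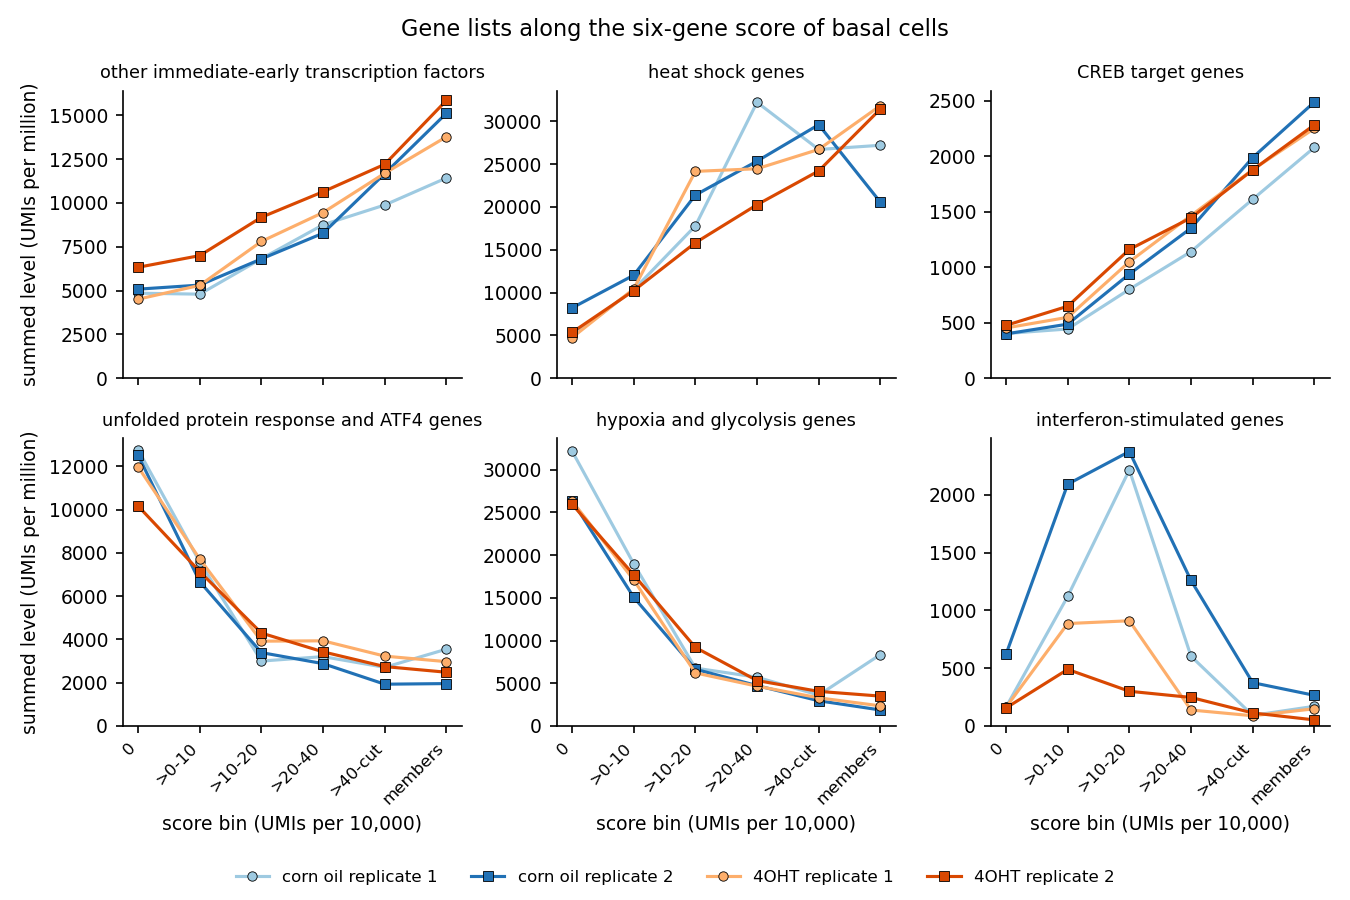
Summed level of 6 gene lists in CPM (y axis, from 0) in basal cells sorted by the six-gene score (x axis), 1 line per library. Immediate-early and CREB lists rose up to the members, heat shock genes rose to members in the 4OHT libraries while in corn oil replicate 2 they were lower in members than just below the cut, and the unfolded protein response and hypoxia lists fell mostly between a score of 0 and 20.

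Members were more frequent among basal cells of the 4OHT libraries. They made up 22 of 1496 basal cells (1.47%, exact 95% interval 0.924 to 2.22) in corn oil replicate 1 and 58 of 1933 (3.00%, 2.29 to 3.86) in corn oil replicate 2. In the 4OHT libraries they made up 156 of 1421 (11.0%, 9.40 to 12.7) and 115 of 2178 (5.28%, 4.38 to 6.30). The groups did not overlap, at 2.24% ± 1.08 (SD, n = 2) and 8.13% ± 4.03 (SD, n = 2). The difference of 5.89 percentage points had p = 0.3333 in a two-sided exact permutation test, the smallest p that 2 libraries against 2 can give, so the design cannot show it to exceed the spread between mice. Intervals cover counting error only.

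The size of the difference rested on 4OHT replicate 1, which held 156 of the 351 members. Without it the difference was 3.04 points, and without 4OHT replicate 2 it was 8.74. With every cell thinned to 2000 UMIs, which left out 34 and 183 basal cells of the corn oil libraries and 111 and 379 of the 4OHT libraries as too shallow, the shares were 1.78%, 3.26%, 12.4% and 5.28%. The share that the cut would mark among luminal cells was 0.208% and 0.205% after corn oil and 1.29% and 1.22% after 4OHT, 55 of 6797 cells in all. These groups did not overlap either, by 1.05 points (p = 0.3333, the smallest the exact permutation test can give).

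**Figure D5:**
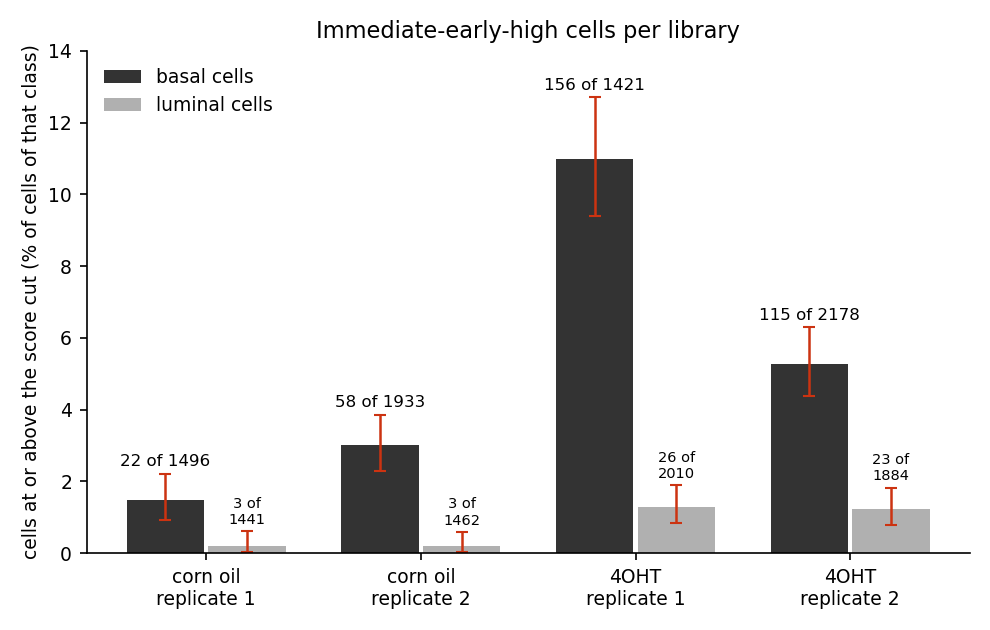
Percentage of basal cells (dark bars) and luminal cells (light bars) at or above the score cut in each library, with exact 95% intervals as lines (counting error only) and counts above the bars. Both 4OHT libraries stand above both corn oil libraries in each cell class, from 5.28% to 11.0% against 1.47% to 3.00% in basal cells.

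Within members, no gene passed between 4OHT and corn oil among 2343 tested (0%) in edgeR's quasi-likelihood test; 56 had an unadjusted p under 0.05, and DESeq2 called 1. Between 0 and 31 passed when 1 library was left out, 28 without corn oil replicate 1, 31 without corn oil replicate 2, 11 without 4OHT replicate 1 and 0 without 4OHT replicate 2. The 3 genes with the smallest p did not pass. Krt15, a keratin, was at 226 and 205 CPM in corn oil members and at 28.2 and 17.3 in 4OHT members (log2 -3.19 ± 0.42, edgeR adjusted p = 0.416). Lgals7, a galectin of stratified epithelia, was at 368 and 721 against 115 and 142, and Ankrd1 at 84.8 and 26.5 against 300.5 and 297.8 (both edgeR adjusted p = 1.00). Groups of none of these genes overlapped.

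With all 4 libraries the rule genes and Tfap2c did not pass in that comparison. The rule genes chose the members by their sum, so their levels within members are bound by the score and are given as a description. The log2 difference between 4OHT and corn oil members was 0.42 ± 0.24 for Fos, 0.56 ± 0.28 for Egr1, 0.68 ± 0.49 for Ptx3, 0.49 ± 0.49 for Rgs2, -0.50 ± 0.30 for Socs3 and -1.20 ± 0.69 for Arc. That of Tfap2c was -0.99 ± 0.64, with 202 ± 174 CPM in corn oil members and 93.2 ± 14.3 in 4OHT members (SD, n = 2). With 1 corn oil library left out, Arc was at -1.85 without corn oil replicate 2 and Ptx3 at 1.57 without corn oil replicate 1. Without corn oil replicate 1, Tfap2c was at 0.20, Arc at 0.26 and Rgs2 at -0.00227, and none of these passed.

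Whether 4OHT acted differently in members than in other basal cells was tested as an interaction. Of 10453 genes 13 passed (0.124%), 2 with a more positive 4OHT effect in members (0.0191%) and 11 with a more negative one (0.105%), and 502 had an unadjusted p under 0.05. None passed without 4OHT replicate 1, 6 passed without 4OHT replicate 2 and 31 without corn oil replicate 1. Without corn oil replicate 2, 15 passed, 2 of them among the 13. Single cells carried most of them: in 8 of the 13 more than 50% of the member UMIs lay in 1 cell. Fgl2 (26 of 27 UMIs), Tnfaip6 (25 of 26), Il6 (29 of 51) and Rrad (74 of 120) had their highest cell in the same member of corn oil replicate 2 that held 44 fibroblast-marker UMIs. Sub1, a transcriptional coactivator with 188 UMIs in 126 members, and the transcription factor gene Irx5, with 71 in 53, were spread over many cells. With the highest cell of each gene left out of each sum, none of the 13 passed, of 9 that could be tested.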

How the data were processed

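Members and gene lists were chosen with earlier results of these data known. The authors deposited 1 matrix of unnormalized UMI counts for each library. Per the submitters' processing notes, the authors used bcl2fastq and Cell Ranger 3.0.1 with mm10. Introns and strand use are not given in the sources used here. Of 31053 gene IDs, 30934 matched GENCODE positions on GRCm38.

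Counts were summed per library and state and compared with edgeR 4.0.16 (quasi-likelihood test, TMM, library as block for members against other basal cells, Benjamini-Hochberg threshold 0.05) in R 4.3.3 with limma 3.58.1. The 6 rule genes were left out for members against other basal cells. They were kept in the comparison of treatments within members and in the interaction. Both states of a pair come from 1 library, which is the pairing. Left-out genes were tested in their own fits. DESeq2 1.42.0 was an alternative. Shares were compared by an exact permutation test (scipy 1.17.1). Scripts were tested on simulated data. Single cells were handled in python 3.11.15 with scanpy 1.11.5. CPM in the comparison of states leave out the rule genes, and elsewhere they include them. Values after ± on a log2 difference are standard errors implied by edgeR's F statistic and do not measure the spread between libraries. Precision is set by the member UMIs, fewest in corn oil replicate 1.

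Likely doublets stayed in. Scrublet's own threshold marked 0.203% to 0.370% of cells per library, so for an alternative the highest scores at 0.8% per 1000 cells were removed, with cells under 500 genes or over 10% mitochondrial counts. Other alternatives were the top 2.5% or 10%, thinning to 2000 UMIs, the top 5% within each library, depth-matched other cells, no block, RLE scaling, DESeq2, no filter and each library left out. Chosen after seeing the data were leaving out cells with over 10 fibroblast-marker UMIs and removing each gene's highest cell.

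Genes are named where they are among the 15 largest called changes in each direction, at 20 CPM or more and in 1 direction in all libraries. Called members of the lists, Tfap2c, Krt5, Krt14, Krt17, Acta2, the rule genes and, between treatments, the called genes or the 3 with the smallest p are named too. Junb in members grouped by leading gene was named after its values were seen.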

Additional observations from a re-analysis of the deposited data

Results flagged for a closer look

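The 4OHT effect differed between members and other basal cells in 13 genes by the interaction term of edgeR's quasi-likelihood test. On the log2 scale the effect in members was lower by -12.35 for Ptcra, -12.28 for Mustn1, -9.07 for Fgl2, -5.909 for Tnfaip6, -3.873 for Il6, -3.144 for Rrad, -3 for Hist1h2ac, -2.188 for Crip1, -2.059 for Meg3, -1.947 for Vegfa and -1.814 for Irx5, and higher by 1.55 for Sub1 and 2.53 for Ccl2. All 17 member UMIs of Ptcra and all 4 of Mustn1 lay in 1 cell each, and so did 50 of the 85 of Hist1h2ac and 42 of the 81 of Ccl2. For Ptcra and Mustn1, 3 of the 4 member sums were at 0, so their fitted differences depend on the prior count and are not sizes. Fgl2 had 0 and 26 UMIs in corn oil members and 0 and 1 in 4OHT members, and Tnfaip6 had 0 and 25 against 0 and 1. Il6 had 0 and 29 against 1 and 21. The values of Fgl2, Tnfaip6 and Il6 rest largely on 1 cell and are not sizes either.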

How the results depend on the processing

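Between members and other basal cells, 1337 genes passed with the top 2.5% of cells, 3276 with the top 10%, 1163 against depth-matched cells, 1257 by DESeq2 and 1390 with no replicate block, against 2115 as reported. With 1 library left out, 1017 to 2152 passed. The causes were not tested, except that fewer genes were tested against depth-matched cells. With the top 2.5%, Phlda1 was at -0.024, Krt14 at -0.022 and Acta2 at -0.27, and Acta2 was at -0.075 with no filter on low counts. With 1 library left out, Acta2 ranged from -0.0083 to 0.16 and Ptgs2 from -0.00115 to 1.78. Other named genes kept their direction in this comparison, and 250 of their values under an alternative no longer passed. Arc left out of the score was at 0.72 with the top 5% within each library and from 0.26 to 0.50 with 1 library left out.

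Between treatments within members, 1 gene passed by DESeq2, 15 with no filter on low counts and 0 to 31 with 1 library left out. The rule genes chose the members, so their values here are a description. Socs3 was at 0.14 with the top 5% within each library. With 1 library left out, Arc ranged from -1.85 to 0.26, Rgs2 from -0.00227 to 1.43 and Tfap2c from -1.71 to 0.20.

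Replicate numbers have no stated shared source. Deviations of same-numbered libraries correlated at 0.254 over 2343 genes. With the replicate number as a replicate block, 15 genes passed between treatments, 0 passed in the interaction, Fos in the interaction was at -0.000926, and the share of members had p = 0.5, the smallest an exact sign-flip test of 2 pairs can give.

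For the difference of the 4OHT effect, the count of 13 became 3 with the top 2.5%, 8 with the top 10%, 21 after thinning, 32 with the top 5% within each library, 0 by DESeq2, 7 without cells with over 10 fibroblast-marker UMIs, 3 without each gene's highest cell and 0 to 31 with 1 library left out. With the top 2.5%, Fgl2 was at 5.06, Il6 at 8.06, Rrad at 11.49, Hist1h2ac at 1.24, Crip1 at 0.26 and Ptx3 at 0.61, and with the top 10% Egr1 was at 0.039. Fos was at -0.10 after thinning, -0.091 with RLE scaling, -0.090 by DESeq2, -0.020 with no filter and -0.031 without fibroblast-marker cells. Without those cells Fgl2 was at 1.85, Il6 at 7.48, Rrad at 1.69 and Egr1 at 0.056. Without the highest cell Il6 was at 7.39, Rrad at 0.68 and Hist1h2ac at 1.45. With 1 library left out, Fgl2 ranged from -14.48 to 1.29, Tnfaip6 from -10.61 to 2.43, Il6 from -7.53 to 6.67, Rrad from -3.84 to 8.57, Crip1 from -2.94 to 9.66, Hist1h2ac from -5.13 to 0.93, Vegfa from -3.10 to 0.056, Fos from -0.26 to 0.30, Egr1 from -0.19 to 0.13, Arc from -1.62 to 0.54, Ptx3 from -0.73 to 0.47 and Tfap2c from -1.30 to 0.22. Values of the rule genes in this comparison are a description, since these genes chose the members. The share of members kept its direction in each alternative run. Corn oil replicate 1 holds 22 members, which limits the precision of its sums. Where 1 library is left out, the lone library of its group is assumed to vary like the others.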
